A study of Mus musculus with 8 samples.

Results

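Nuclear-encoded subunits of oxidative phosphorylation were examined in iBMDM cells, a wild-type line of mouse macrophages from bone marrow that was made immortal. Members were the gene rows whose symbol follows the naming pattern of subunits of complexes I to V (Ndufa, Ndufb, Ndufc, Ndufs and Ndufv with a number, Sdha to Sdhd, Uqcr, Cox4 to Cox8 with a letter, and Atp5), without assembly factors and names ending in -ps. The pattern took 97 of 55414 gene rows, of which 8 were -ps names, and so left 89 members with 88 symbols, since Atp5o stands for 2 gene identifiers. By complex these were 38 members of complex I, 4 of complex II, 8 of complex III, 19 of complex IV and 18 of complex V, with Ndufa4 and its relative Ndufa4l2 kept apart from complexes I and IV. The pattern does not take Ndufab1, Cyc1, Cycs or Usmg5, and Ndufb1-ps was left out by its name although it had 306 to 532 counts per library.

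Oxidative phosphorylation takes electrons from NADH at complex I and from succinate at complex II, passes them through ubiquinone to complex III and by cytochrome c to complex IV, and uses the proton gradient this builds to make ATP at complex V. Complexes I, III, IV and V combine subunits from mitochondrial DNA with subunits from nuclear genes, whereas complex II, which is also an enzyme of the tricarboxylic acid cycle, is wholly nuclear-encoded. Macrophages activated by lipopolysaccharide are known to lean on glycolysis for ATP and to use succinate oxidation and complex I for signalling through reactive oxygen species.

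The 4 groups of 2 libraries differed in 2 agents. Control cells had only the solvents, DMSO and water; the LPS group had 1 μg/ml lipopolysaccharide, a bacterial cell wall component sensed by TLR4, for 4 h; the DSF group had 5 μM disulfiram, an inhibitor of aldehyde dehydrogenase, added 0.5 h before water; and the DSF+LPS group had DSF and then LPS at the same doses and times. The question of the study was whether DSF blocks TLR4 signalling after LPS. All 4 groups come from the same immortal line, and no source used here says whether the libraries numbered 1 and 2 were separate cultures. Each p-value is thus set against the differences within pairs of libraries, and those could be technical. Library totals were between 17822041 and 21694922 counts. The 8 macrophage markers summed to 2134 to 2915 CPM (counts scaled to a common library total), whereas 6 neutrophil, 6 lymphocyte, 5 fibroblast and 6 epithelial and endothelial markers summed to at most 4.18 per list, with S100a9, Cd3e and Cd3g at 0 in every library. In the 2 control libraries the macrophage sum was 2628 to 2685, and it was 2827 to 2915 in the LPS libraries, 2134 to 2263 in those with DSF and 2302 to 2385 in those with both agents; its part in the results was not tested. In such bulk RNA, fewer cells of a type and less RNA per cell cannot be told apart.

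From here on, levels are CPM with TMM scaling of the libraries (trimmed mean of M-values), a method that takes most genes as unchanged. The verbs rose and fell are kept for genes whose Benjamini-Hochberg adjusted p, from edgeR's quasi-likelihood test over all 16304 genes tested, was under 0.05. SE is the standard error of a log2 fold change. Of the 89 members, 82 passed the filter on low counts and were tested: every member of complexes I, II and III, 14 of 19 of complex IV, 17 of 18 of complex V, and Ndufa4. The 7 others (Cox4i2, Cox6b2, Cox7b2, Cox8b, Cox8c, Ndufa4l2 and the second Atp5o identifier) had 12 counts or fewer over any group of 2 libraries.

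The members together took 0.923% to 1.05% of each library, and the complexes divided that share differently once DSF was present. Their summed counts were 1.03% ± 0.029 of the control libraries, 0.939% ± 0.023 of those with LPS, 0.963% ± 0.023 of those with DSF and 1.03% ± 0.016 of those with both (SD, n = 2). Both libraries with LPS alone and both with DSF alone lay below both control libraries in this share. The part taken by complex IV was 15.3% ± 0.34 of the members' counts in control libraries and 15.7% ± 0.42 after LPS, against 18.5% ± 0.0039 after DSF and 19.6% ± 0.19 after DSF+LPS. Complex II went the other way, with 8.72% ± 0.072 in control libraries and 8.17% ± 0.015 after LPS, against 6.83% ± 0.17 after DSF and 6.48% ± 0.14 after DSF+LPS. Complex V, the most abundant, took 42.4% ± 0.16 and 42.8% ± 0.26 without DSF and 39.8% ± 0.031 and 39.4% ± 0.086 with it. Complexes I and III moved less, between 20.7% and 22.2% and between 11.02% and 11.6% as group means, and both were higher in every library with DSF than in any without. On the TMM scale the members of complex IV summed to 1459 CPM in control libraries, 1522 after LPS, 1767 after DSF and 2148 after DSF+LPS as group means, those of complex II to 830.5, 790.1, 652 and 709, those of complex V to 4039, 4141, 3804 and 4312, those of complex I to 2023, 2004, 2122 and 2384, and those of complex III to 1049, 1085, 1082 and 1271. The percentages lie within a library and do not depend on the scaling between libraries; for each of the 5 complexes the 4 libraries with DSF did not overlap the 4 without.

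**Figure D1:**
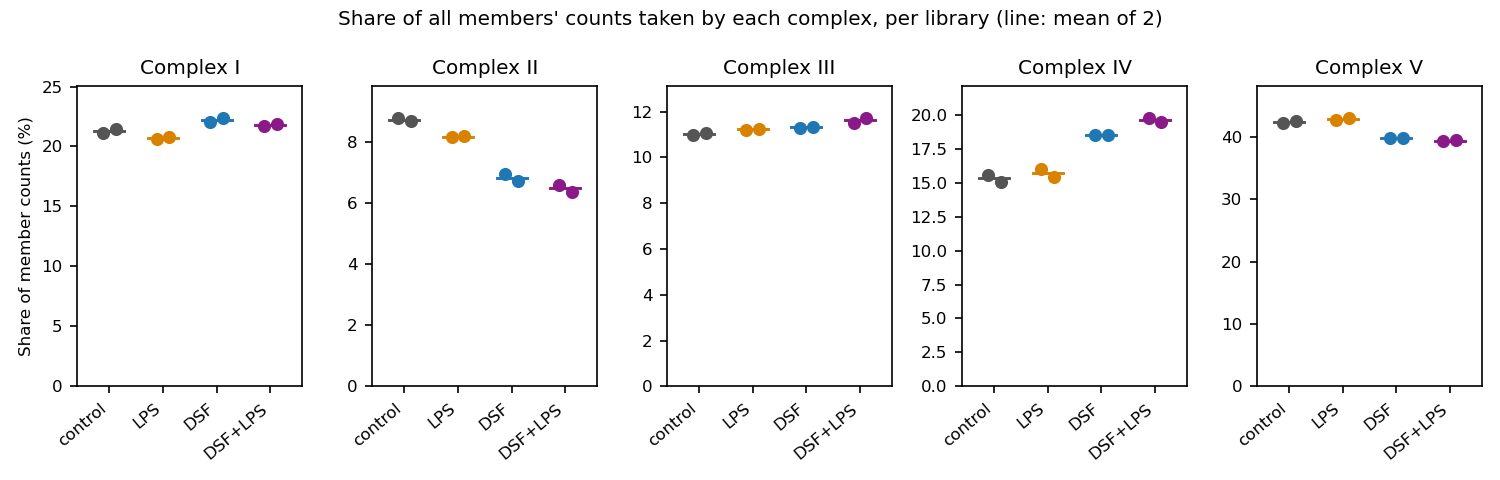
Share of all members' counts (%, vertical axis, from 0) that each complex took in each of the 8 libraries, by group; points are libraries and lines the means of 2. Complex IV is at 18.5% or more and complex II at 7.0% or less in the libraries with DSF, and complexes I and III move less.

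Between genes, levels were compared per kilobase of exonic length. This length joins all annotated exons of a gene and can exceed its main transcript, as for Ndufb7 with 4522 against 623 bases. The order of genes thus depends on the annotation. In control the highest were Atp5a1 at 393 CPM per kb and Atp5b at 355, the catalytic-head subunits alpha and beta of ATP synthase, then Cox8a at 333, Cox6a1 at 308 and Cox4i1 at 281 CPM per kb, all of complex IV. With LPS the same 5 stood in the same order. With DSF the order was Cox6a1 at 403, Cox8a at 395, Cox4i1 at 359, Atp5b at 347 and Atp5a1 at 311 CPM per kb, and with DSF+LPS it was Cox6a1 at 509.8, Cox8a at 468, Cox4i1 at 464, Atp5b at 386 and Atp5a1 at 359. These are group means over 2 libraries, and neighbours in the order were not tested against each other.

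LPS alone moved the members very little. Of 82 tested, 1 rose and 1 fell, where LPS raised 15.2% and lowered 13.8% of all genes tested. Uqcrq, a small subunit of complex III, stood at 128 and 132 CPM in control and 153 and 146 CPM with LPS and rose (log2 fold change 0.20, SE 0.072, edgeR adjusted p = 0.0449). Ndufv3, an accessory subunit in the NADH-oxidising module of complex I, stood at 32.1 and 32.6 CPM in control and 23.9 and 25.7 CPM with LPS and fell (log2 fold change -0.38, SE 0.097, edgeR adjusted p = 0.00755). For both, the libraries of the groups did not overlap. The median log2 fold change of the members was 0.027, beside 0.017 for all genes. Among the named subunits, Sdha had 357 ± 17.7 CPM in control and 349 ± 11.1 with LPS (SD, n = 2), Ndufs1 123 ± 3.07 and 125 ± 4.34, Cox4i1 436 ± 24.8 and 469 ± 44.6, and Atp5b 1504 ± 23.6 and 1588 ± 55.6 CPM. Counted without a test, 20 members had both LPS libraries above both controls and 12 had both below, beside 34.2% and 31.3% of all genes.

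These counts depended on the scaling. With library size alone, which moved the median of all genes from 0.017 to -0.13 in this comparison, none rose and 16 members fell (9.9% and 23.1% of all genes), and with upper-quartile scaling none rose and 3 fell (12.4% and 17.3%). Uqcrq lost its call without either control library, either LPS library or DSF replicate 1, and Ndufv3 without control replicate 2 or LPS replicate 1, with adjusted p up to 0.661 and 0.0863 over all alternatives. Without DSF+LPS replicate 1, or without replicate 2, 3 members fell. The median of the members was -0.000957 without LPS replicate 1 and 0.0666 without LPS replicate 2.

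DSF alone moved the members in both directions. Of 82 tested, 24 rose and 11 fell, where DSF raised 31% and lowered 27.1% of all genes tested, so the share of members that rose was near the background and the share that fell was below it. The median log2 fold change of the members was 0.084, beside 0.050 for all genes. By complex, 11 members of complex I rose and 1 fell, none of complex II rose and 2 fell, 4 of complex III rose and 3 fell, 6 of complex IV rose and none fell, and 3 of complex V rose and 5 fell. With library size alone the split over all members was 13 up and 17 down (27.1% and 32.3% of all genes); that scaling moved the median of all genes from 0.050 to -0.052. The libraries with DSF also had more genes with at least 1 count (23416 to 25081, against 19779 to 20324 without) and more of their counts in the 10 most abundant genes (7.23% to 8.39%, against 4.85% to 5.14%); the part of these in the results was not tested.

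In complex II both called members fell, and in the core of complex I 1 member fell and 1 rose. Sdha, the flavoprotein that oxidises succinate, had 369.6 and 344 CPM in control, 357 and 341 with LPS, 256 and 267 with DSF, and 289 and 267 with DSF+LPS. The 4 libraries with DSF all lay below the 4 without, and Sdha fell by 0.45 on the log2 scale with DSF (SE 0.068, edgeR adjusted p = 5.75e-05). Sdhd, a membrane anchor near the ubiquinone site, had 193 and 187 CPM in control, 174 and 162 with LPS, 120.3 and 126 with DSF, and 141 and 138 with DSF+LPS, and fell by 0.63 (SE 0.07, adjusted p = 2.62e-06). It was the member with the largest fall among those above 10 CPM in every library. Sdhb, the iron-sulfur subunit, had 145 ± 4.37 CPM in control and 139 ± 2.71 with DSF, and Sdhc, the other anchor, 138 ± 2.90 and 128 ± 0.834; neither passed the test. In complex I, Ndufs1, the large iron-sulfur subunit of the NADH-oxidising module, had 125 and 120.4 CPM in control, 128 and 122 with LPS, 89.9 and 94.9 with DSF, and 88.6 and 86.7 with DSF+LPS. It fell by 0.41 (SE 0.073, adjusted p = 0.000228), with no overlap between libraries with and without DSF. Of the 7 core subunits of complex I, which carry its redox centres and ubiquinone site, 1 fell (Ndufs1), 1 rose (Ndufs8, named here because the count is small) and 5 did not pass; Ndufv1 had 105 ± 6.88 CPM in control and 111 ± 2.42 with DSF.

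The accessory subunits of complex I surround the core and stabilise it. With DSF 10 of 31 rose, a share near the 31% of all genes, and none fell; no test compared them with the core. Ndufa1, a small subunit of the membrane arm, had 17.7 and 17.1 CPM in control, 17.5 and 21.5 with LPS, 24.5 and 32.2 with DSF, and 32.3 and 36.1 with DSF+LPS. Every library with DSF was above every library without, and Ndufa1 rose by 0.70 (SE 0.14, edgeR adjusted p = 0.000627). Ndufa2, of the NADH-oxidising module that also holds Ndufs1, had 54.6 and 51.9 CPM in control, 60.2 and 57.7 with LPS, 68.1 and 83.5 with DSF, and 97.1 and 103 with DSF+LPS, and rose by 0.51 (SE 0.096, adjusted p = 0.000386). Within a library the ratio of Ndufa2 to Ndufs1 counts, which needs no scaling, was 0.431 to 0.437 in control, 0.470 to 0.473 with LPS, 0.758 to 0.879 with DSF and 1.10 to 1.19 with DSF+LPS. This pair, and those of the later ratios between subunits, were chosen after their values were seen, so the ratios add no separate support. Ndufa11b, a copy of Ndufa11, had counts of 0 and 1 in control, 3 and 2 with LPS, 11 and 8 with DSF and 15 and 9 with DSF+LPS. Without DSF its counts were below the filter's minimum count of 10, so it entered the test only through libraries with DSF. The counts of members that rose include Ndufa11b, but its calls are no separate support. The ratio of DSF to control was 18.04 by library totals, with a 95% exact binomial interval from 2.87 to 750 that covers counting error only.

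In complex III 4 small subunits rose, and both core proteins and the Rieske protein fell. Uqcrq, which sits beside cytochrome b, had 128 and 132 CPM in control, 153 and 146 with LPS, 211 and 229 with DSF, and 274 and 294 with DSF+LPS. It rose by 0.76 with DSF (SE 0.072, edgeR adjusted p = 4.46e-07), and the groups lay apart in the order control, LPS, DSF, DSF+LPS. Uqcr10 rose by 0.42 and Uqcr11 by 0.34, both small subunits of the membrane part, and Uqcrh, the hinge protein that docks cytochrome c1, made the fourth. Uqcrb, another small subunit, had 10.7 and 8.94 CPM in control and 6.97 and 9.24 CPM with DSF and did not pass (log2 fold change -0.28, SE 0.18, edgeR adjusted p = 0.206). In contrast the core proteins Uqcrc1 and Uqcrc2 and the Rieske iron-sulfur protein Uqcrfs1 fell. Uqcrc1 had 323 and 321 CPM in control and 260.5 and 266 CPM with DSF, a log2 fold change of -0.29 (SE 0.062, adjusted p = 0.00101). Uqcrc2 had 197 and 193 CPM and 164 and 161 CPM (-0.26), and Uqcrfs1 178 and 160.5 CPM and 148 and 146 CPM (-0.20, adjusted p = 0.044). The within-library ratio of Uqcrq to Uqcrc1 counts was 0.395 to 0.410 in control and 0.812 to 0.862 with DSF.

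In complex IV no tested member fell with DSF. Cox4i1, a regulatory subunit present from the start of assembly, had 453 and 418 CPM in control, 501 and 438 with LPS, 536 and 578 with DSF, and 729 and 710.1 with DSF+LPS. It rose by 0.35 with DSF (SE 0.074, edgeR adjusted p = 0.000846). Cox6a1, a small subunit at the dimer interface, had 232 and 201 CPM in control, 241 and 213 with LPS, 284 and 282 with DSF, and 365 and 350.4 with DSF+LPS, and rose by 0.39 (SE 0.08, adjusted p = 0.00081). For both genes all 4 libraries with DSF exceeded all 4 without. Cox7a2l, which links complexes III and IV in supercomplexes, had 72.7 and 70.1 CPM in control, 61.8 and 63.4 with LPS, 97.1 and 105 with DSF, and 103 and 102 with DSF+LPS, and rose by 0.50 (SE 0.076, adjusted p = 5.45e-05). Cox5a had 155 ± 3.75 CPM in control and 171 ± 5.27 with DSF, Cox5b 22.4 ± 1.27 and 22.3 ± 2.58, and Cox7a2 68.9 ± 5.11 and 78.1 ± 2.07, and these did not pass. Ndufa4, first described in complex I and now placed in complex IV, stayed between 111.6 and 126 CPM in every library and was not called in any of the 5 comparisons.

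In complex V 3 members rose and 5 fell with DSF. Atp5a1, the alpha subunit, had 1253 and 1210 CPM in control, 1283 and 1204 with LPS, 951 and 996 with DSF, and 1163 and 1087 with DSF+LPS, and fell by 0.34 with DSF (SE 0.06, edgeR adjusted p = 0.000226). Its partner in the catalytic head, the beta subunit Atp5b, had 1520 and 1487 CPM in control, 1627 and 1548 with LPS, 1446 and 1497 with DSF, and 1621 and 1651 with DSF+LPS and did not pass (log2 fold change -0.031, SE 0.054, edgeR adjusted p = 0.644). The gamma subunit Atp5c1, the rotor shaft, had 218 and 211 CPM in control, 195 and 207 with LPS, 179 and 183 with DSF, and 180.00 and 174 with DSF+LPS, and fell by 0.25 (adjusted p = 0.00536). Atp5f1, a stalk subunit, fell by 0.28, and Atp5s and Atp5l fell by 0.78 and 1.13 from low levels of 5.26 ± 0.468 and 7.34 ± 0.819 CPM in control. The epsilon subunit Atp5e, at the foot of the same rotor shaft as Atp5c1, had 67.2 and 68.8 CPM in control, 71.4 and 75.3 with LPS, 91.4 and 96.3 with DSF, and 118 and 122 with DSF+LPS, and rose by 0.46 (SE 0.075, adjusted p = 9.92e-05); Atp5d, the delta subunit beside it, rose by 0.28 and the small proteolipid Atp5mpl by 0.29. The within-library ratio of Atp5e to Atp5a1 counts was 0.0536 to 0.0569 in control, 0.0557 to 0.0625 with LPS, 0.0961 to 0.0967 with DSF and 0.102 to 0.112 with DSF+LPS.

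**Figure D2:**
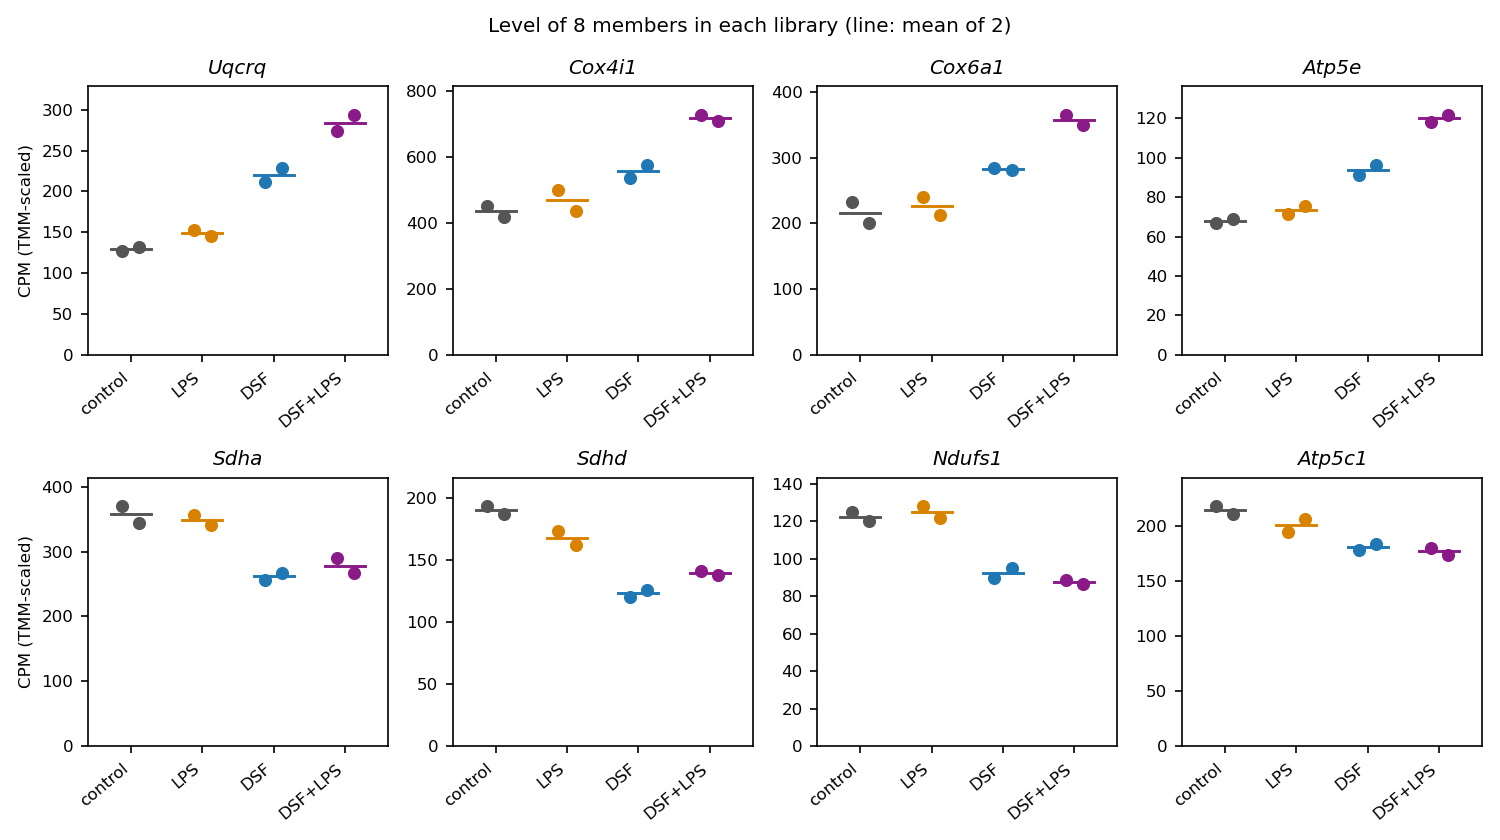
Level of 8 members in each library (CPM after TMM scaling, vertical axis from 0), by group; points are libraries and lines the means of 2. The top row (Uqcrq, Cox4i1, Cox6a1, Atp5e) is higher in all 4 libraries with DSF than in the 4 without, and the bottom row (Sdha, Sdhd, Ndufs1, Atp5c1) is lower.

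Ndufa11b passed the filter only through libraries with DSF, so the steadiness of its call is no separate support. Of 23 calls with DSF alone that belong to named members, 18, that of Ndufa11b included, held under every alternative run. The others were Atp5c1 (adjusted p = 0.0501 without control replicate 1), Atp5mpl (up to 0.143, with library size alone and without control replicate 1 or DSF replicate 2), Atp5s (up to 0.184, without control replicate 1 or DSF replicate 2), Uqcr11 (up to 0.232, with library size alone and without control replicate 2 or DSF replicate 2) and Uqcrfs1 (up to 0.329, with 3 other scalings or tools and without control replicate 1, DSF replicate 1 or DSF replicate 2). The count of members that rose was 15 without control replicate 2 and 15 without DSF replicate 2, and the count that fell was 7 without control replicate 1.

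With LPS present, more members were called higher with DSF than without LPS, but a difference in counts of calls is not a test. Against LPS alone, 39 of 82 members rose and 9 fell with DSF+LPS, where 33.7% of all genes tested rose and 31.6% fell. The median log2 fold change of the members was 0.21, beside 0.042 for all genes. Upper-quartile scaling, which moved the median of all genes to 0.19, gave 54 up and 2 down (39.5% and 25.9% of all genes), and library size alone gave 31 and 11 (31.8% and 33.5%). Complex IV had 10 of 14 up and none down, complex I 17 of 38 up and 2 down, complex III 4 and 2 of 8, complex V 7 and 3 of 17, and complex II 1 and 2 of 4. Accessory subunits of complex I rose in 14 of 31 cases with none down, and among the core subunits Ndufs7 and Ndufs8 rose and Ndufs1 and Ndufv2 fell. Both DSF+LPS libraries were above both LPS libraries for 49 members and below for 14, beside 42.7% and 39.5% of all genes.

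The highest rises among well-expressed members were those of Uqcrq (log2 fold change 0.93, SE 0.071, edgeR adjusted p = 3.8e-08), Ndufa13 (0.85, adjusted p = 9.02e-06), a membrane-arm subunit of complex I also known as GRIM-19, and Uqcr11 (0.82, adjusted p = 1.73e-05). Ndufa13 had 33.1 and 35.8 CPM in control, 31.8 and 36.6 with LPS, 43.7 and 53.3 with DSF, and 59.5 and 63.8 with DSF+LPS, and Uqcr11 33.8 and 31.1 CPM in control, 27.6 and 31.4 with LPS, 37.1 and 44.8 with DSF, and 49.1 and 55.1 with DSF+LPS. For both, the DSF+LPS libraries were above those of every other group. Cox4i1 rose by 0.62, Cox6a1 by 0.66, Cox7a2l by 0.71, Atp5e by 0.71 and Atp5d by 0.61, each with SE under 0.1. Cox5b, which binds zinc in complex IV and did not pass with DSF alone, had 21.5 and 23.3 CPM in control, 21.0 and 21.9 with LPS, 20.5 and 24.1 with DSF, and 33.6 and 31.5 with DSF+LPS and rose by 0.60 (SE 0.11, adjusted p = 0.00028). The falls were led by Ndufs1 (log2 fold change -0.51, SE 0.073, edgeR adjusted p = 2.33e-05), Sdha (-0.33, adjusted p = 0.000718) and Atp5f1 (-0.30, adjusted p = 0.00241), followed by Sdhd at -0.27, Uqcrfs1 at -0.25, Ndufv2 at -0.22, Uqcrc2 at -0.18, Atp5c1 at -0.18 and Atp5a1 at -0.14.

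Of 27 calls of named members in this comparison, 16 held under every alternative. Among the falls these were Ndufs1 and Sdha. Atp5f1 lost its call with upper-quartile scaling (adjusted p = 0.0857), Sdhd with that scaling or without LPS replicate 1 (up to 0.150), Uqcrfs1 with that scaling or without LPS replicate 1 or DSF+LPS replicate 2 (up to 0.274), and Atp5a1, Atp5c1, Ndufv2 and Uqcrc2 under 6 or more alternatives each (up to 0.985, 0.678, 0.467 and 0.681), among them the omission of DSF+LPS replicate 2. The value of Atp5a1 turned to 0.0016 with upper-quartile scaling. The number of members that fell was 5 without DSF+LPS replicate 2. Atp5a1 also lost its call without either control library, LPS replicate 1 or DSF replicate 1, Atp5c1 without LPS replicate 2, Ndufv2 without LPS replicate 2 or DSF replicate 1, and Uqcrc2 without either LPS library or DSF replicate 1. Among the rises, Sdhb was lost without LPS replicate 2 or DSF+LPS replicate 1 (adjusted p up to 0.185), Ndufa11b without either LPS library or DSF+LPS replicate 1 (up to 0.101), and Atp5k, a small subunit of complex V, without either control library, either LPS library or DSF+LPS replicate 2 (up to 0.473).

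**Figure D3:**
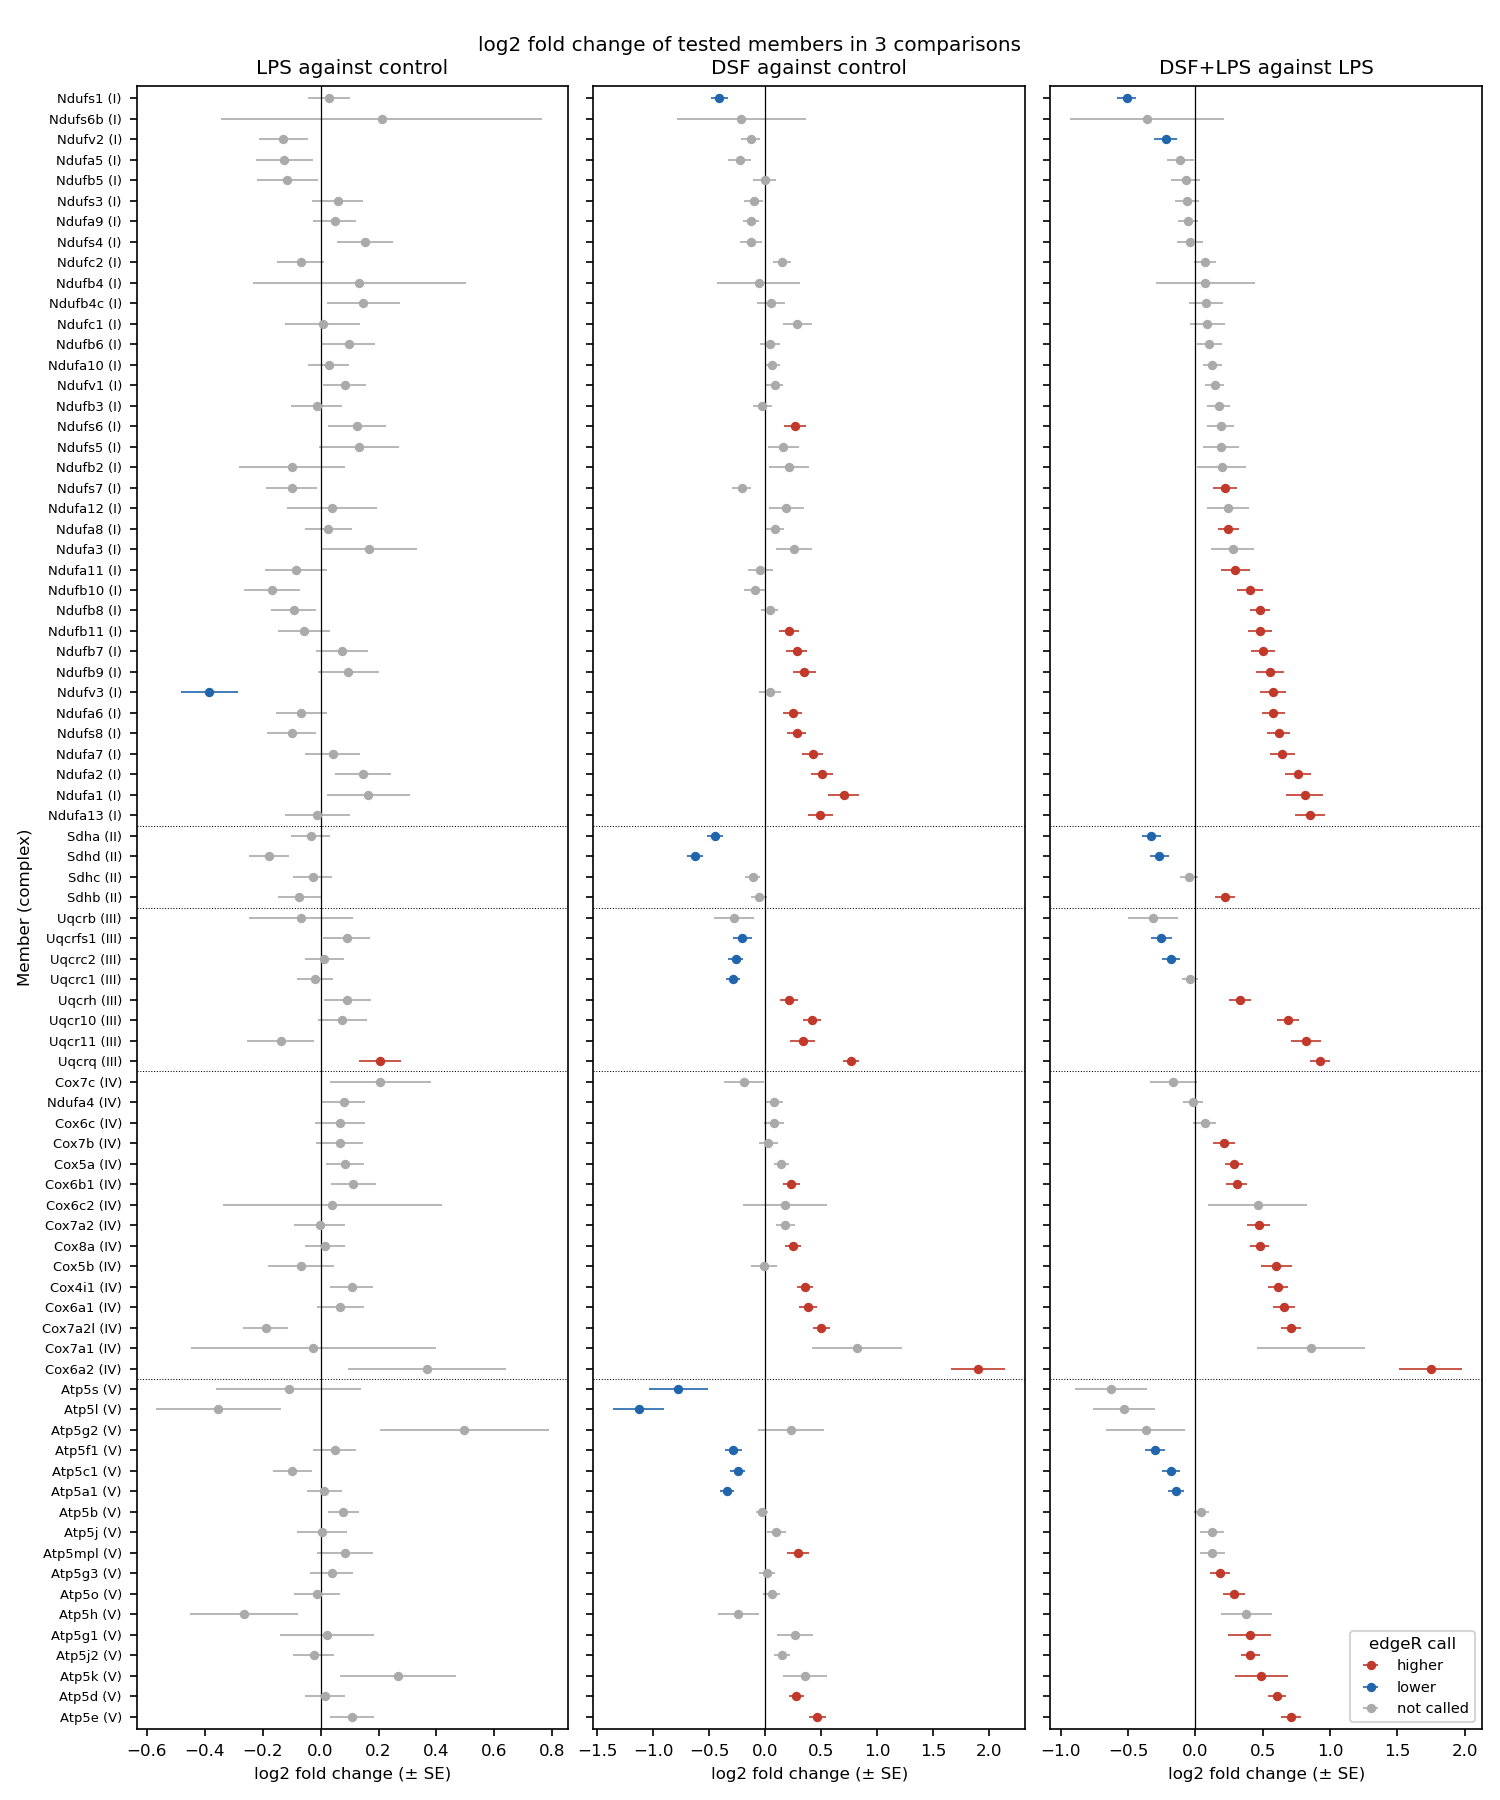
log2 fold change (horizontal axis, ± SE) of 80 of the 82 tested members in 3 comparisons, without Ndufa11b, whose control counts were 0 and 1; rows are members with their complex, Ndufa4 among complex IV, sorted within a complex by the right panel, and each panel has its own scale. Red members rose, blue members fell and grey members were not called. In the right panel the sort itself puts red members at the foot and blue at the head of a complex. Complex IV has no blue member.

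The comparisons with and without LPS share no library, and their calls largely overlapped. Of 24 members that rose with DSF alone, 22 also rose with DSF+LPS against LPS, which is 91.7% of the former and 56.4% of the 39 latter, beside 80.5% and 73.9% for all genes that rose. Of 11 that fell with DSF alone, 8 fell in the other comparison too, 72.7% of the former and 88.9% of the 9 latter, beside 78.3% and 67.1% for all genes. No member was called in opposite directions. Atp5mpl and Ndufs6 (called higher) and Atp5l, Atp5s and Uqcrc1 (called lower) passed with DSF alone and not with LPS present, but for none of these 5 was the interaction called (adjusted p from 0.0588 for Uqcrc1 to 0.842 for Atp5s), so a difference between the comparisons is not shown. Uqcrc1 had 326 and 309 CPM with LPS and 312 and 306 CPM with DSF+LPS, which overlap. Among members called only with LPS present, the interaction was called for Cox5b, Ndufb10, Ndufb8, Ndufs7 and Ndufv3, all called higher. For the others called only there, a difference between the comparisons is likewise not shown.

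Cells given LPS after DSF differed from cells given DSF alone in the upward direction. In this comparison 18 of 82 members rose and none fell, where 5.53% of all genes tested rose and 6.53% fell. The median log2 fold change was 0.19, beside -0.0034 for all genes. The risers were 6 members of complex IV, 5 of complex I, 4 of complex V and 3 of complex III. Cox5b led with 0.55 (SE 0.11, edgeR adjusted p = 0.00709), followed by Ndufa2 at 0.40, Uqcrq at 0.37 and Cox4i1 at 0.37. For Cox4i1 both DSF+LPS libraries (729 and 710.1 CPM) were above both DSF libraries (536 and 578 CPM). The calls here were less steady: without DSF replicate 1 none passed, without control replicate 1 or control replicate 2 10 rose, in a fit of these 2 groups alone 5 rose, and with library size alone 7 rose and 2 fell (2.85% and 13.4% of all genes). No call of the 15 named members held under every alternative.

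The difference between the LPS responses with and without DSF was tested as an interaction. It was above 0 for 8 members and below 0 for none, where 7.58% and 12.2% of all genes tested were called in these directions. The members were Cox5b (log2 fold change 0.61, SE 0.16, edgeR adjusted p = 0.014), Ndufv3 (0.53, adjusted p = 0.0128), Ndufb10 (0.50, 0.0175), Uqcr11 (0.48, 0.0459), Ndufb8 (0.44, 0.0101), Ndufs7 (0.43, 0.0242), Sdhd (0.36, 0.0183) and Atp5d (0.33, 0.0274). The 8 members were not alike in how the difference came about. Cox5b, Ndufb8, Atp5d and Ndufb10 were not called with LPS alone and rose with DSF+LPS against DSF (0.55, 0.35, 0.34 and 0.33). Ndufv3 was the sole member of the 8 that fell with LPS alone. Ndufv3 had 32.1 and 32.6 CPM in control, 23.9 and 25.7 with LPS, 33.2 and 33.5 with DSF, and 35.4 and 38.4 with DSF+LPS. It fell with LPS without the drug, and with the drug the value was 0.15 (adjusted p = 0.357). Ndufb8, an accessory subunit of the membrane arm, had 106 and 107 CPM in control, 104 and 95.7 with LPS, 105 and 114 with DSF, and 135 and 142 with DSF+LPS. Each of the 8 calls was lost without at least 1 library (control replicate 1 or 2, LPS replicate 1 or 2, DSF replicate 1 or, for Uqcr11, DSF+LPS replicate 2), with adjusted p up to 0.185, while the direction stayed. The number called was 3 without control replicate 1 and 3 without control replicate 2, 2 without LPS replicate 2 and 2 without DSF replicate 1, 19 without DSF+LPS replicate 2, 16 with library size alone (9.12% of all genes above 0 and 10.1% below) and 19 with upper-quartile scaling (10.4% and 9.46%).

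**Figure D4:**
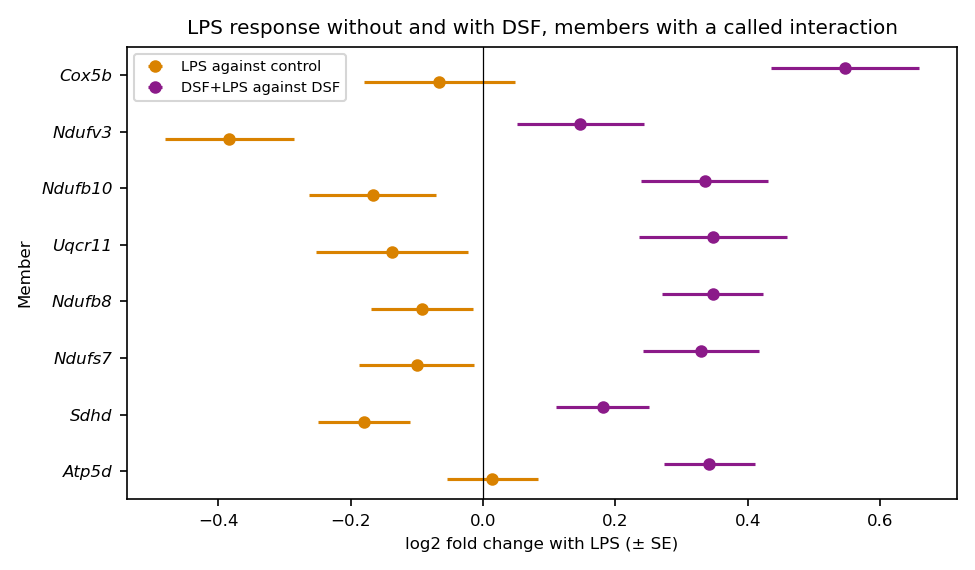
log2 fold change with LPS (horizontal axis, ± SE) without DSF (orange) and with DSF (purple) for the 8 members whose interaction passed the test. Orange points are at 0.014 or below and purple points above 0, from 0.15 for Ndufv3 to 0.55 for Cox5b.

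Promoter sequence was set beside these changes for the members that RefSeq start sites cover (GRCm38.p6, windows of 300 bases, 250 before the start and 50 after); 69 of 89 members matched and 20 did not. Words of known regulators of respiratory genes were searched on both strands: NRF1 (GCGCNTGCG), ETS factors such as GABPA (CCGGAAG), YY1 (AAGATGGC), the antioxidant response element (TGACNNNGC), a pair of heat shock element units (GAANNTTC) and SP1 (GGGCGG). The NRF1 and heat shock words were shortened to these letters after the matches of longer forms had been seen. The NRF1 word was in 34.3% of the 70 windows of tested members, against 6.31% of 32851 windows of all genes, the ETS word in 22.9% against 8.86%, and the YY1 word in 14.3% against 2.75%. The antioxidant response element word was in 14.3% against 12.4%, SP1 in 38.6% against 35.7%, and the heat shock word in 5.71% against 7.86%. By response to DSF, the ETS word was in 8 of 19 windows of members that rose, 2 of 9 of members that fell and 6 of 42 of members not called, and the NRF1 word in 6 of 19, 5 of 9 and 13 of 42. The windows of all genes cover 27025 genes, tested or not, whereas those of members are of tested genes only. A comparison with the windows of tested genes alone was not made. A match is a description of letters and not a binding site.

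The 150 bases before the start of 2 members that fell and 2 that rose are printed because they show the NRF1 and ETS words, alone or together; they were chosen after the calls and the matches were seen. Capitals mark any of the 6 words on either strand, none overlapping another. Sdha is at chr13:74350241-74350390, Sdhd at chr9:50603850-50603999, Cox6a1 at chr5:115348959-115349108 and Uqcr11 at chr10:80406822-80406971, all on the minus strand of GRCm38.p6 and read 5′ to 3′ towards the gene.
Sdha: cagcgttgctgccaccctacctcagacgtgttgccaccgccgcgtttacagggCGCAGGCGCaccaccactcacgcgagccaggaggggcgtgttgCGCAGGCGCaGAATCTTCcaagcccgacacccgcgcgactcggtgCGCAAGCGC
Sdhd: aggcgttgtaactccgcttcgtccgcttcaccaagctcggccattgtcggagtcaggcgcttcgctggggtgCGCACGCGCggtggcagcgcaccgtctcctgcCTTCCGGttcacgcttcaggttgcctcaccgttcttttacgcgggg
Cox6a1: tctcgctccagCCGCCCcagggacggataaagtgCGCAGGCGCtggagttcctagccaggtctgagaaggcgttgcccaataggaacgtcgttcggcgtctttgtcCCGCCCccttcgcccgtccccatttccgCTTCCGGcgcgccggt
Uqcr11: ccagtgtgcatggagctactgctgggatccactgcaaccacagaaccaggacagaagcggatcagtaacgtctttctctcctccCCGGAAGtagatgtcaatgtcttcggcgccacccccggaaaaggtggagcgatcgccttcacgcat
In these 150 bases Sdha holds the NRF1 word 3 times, the heat shock word once and no ETS word, Sdhd and Cox6a1 hold both, and Uqcr11 holds the ETS word; in the 300-base window Uqcr11 also holds the NRF1 word.

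Tissue isoforms of complex IV and other rare members were low. Cox6a2, the heart and muscle isoform of subunit VIa, had counts of 27 and 35 in control, 42 and 36 with LPS, 117 and 110 with DSF and 116 and 126 with DSF+LPS. The libraries with DSF were far above those without, and it rose by 1.90 with DSF (SE 0.24, edgeR adjusted p = 1.13e-05) and by 1.75 with LPS present (SE 0.24, adjusted p = 1.37e-05). Its counts were 0.602% to 0.759% of those of Cox6a1 in control and 1.87% to 2.02% with DSF. Cox7a1, the muscle isoform of subunit VIIa, had 0.828 and 1.13 CPM in control, 1.13 and 0.813 with LPS, 1.49 and 2.01 with DSF, and 1.46 and 2.07 with DSF+LPS and did not pass with DSF (log2 fold change 0.82, SE 0.40, edgeR adjusted p = 0.0912). Cox6b2, the testis isoform, had no count in the control and LPS libraries, 1 and 2 counts with DSF and 7 and 4 with DSF+LPS. Cox4i2, the lung isoform, had 0 to 5 counts per library, Ndufa4l2 0 to 8, Cox8b 0 to 2, and Cox7b2 and Cox8c none.

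Exonic length, over all annotated exons of a gene, and sequence shared with other genes ran along with these results. Median exonic length (GENCODE M21) was 1124 bases for the 24 members that rose with DSF, 3135 bases for the 11 that fell and 1675 for the 47 not called, beside 3504 for all genes. Across the 82 members, the log2 fold change with DSF and the log2 length had a Pearson r of -0.41 and a Spearman rho of -0.43, against -0.10 and -0.16 over 16243 genes; genes of 1 set of libraries are not independent replicates. In 4 equal bins of all genes by length the median log2 fold change with DSF was 0.28, 0.064, -0.058 and -0.095 from the shortest to the longest, and 46 of 82 members were in the shortest bin, where their median was 0.21. The part of length in the results was not tested. Of the 82 tested members, 20 shared at least 20% of their 50-base words with other genes, so that their counts are uncertain as to gene. The highest shares were those of Ndufb4c (100%), Atp5g2 (87.4%), Atp5l (84.8%), Cox7c (53.0%), Cox6c2 (52.7%) and Atp5o (50.3%), followed by Atp5h (47.9%) and Uqcrb (43.4%). With DSF 2 of these 20 rose and 3 fell, against 22 and 8 of the 62 others.

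In the lists of assembly factors, cycle enzymes and mitochondrial ribosomal proteins, falls outnumbered rises with DSF, whereas of 9 tested respiratory chain genes that the symbol pattern does not take 3 rose and 1 fell (3 and 2 with LPS present). Of 15 assembly factors of complex I none rose and 6 fell with DSF, and none and 6 with DSF+LPS against LPS. Acad9, an assembly factor of the membrane arm, had 69.0 and 68.8 CPM in control and 32.4 and 30.7 CPM with DSF and fell by 1.13 (edgeR adjusted p = 4.37e-08). Of 10 factors of complexes II and III 1 rose and 6 fell with DSF (1 and 5 with LPS present), of 18 tested factors of complex IV 4 and 11 (3 and 12), and all 4 of complex V fell in both comparisons. Cox11, which helps to place copper in complex IV, had 11.3 and 12.3 CPM in control and 6.25 and 3.77 CPM with DSF and fell by 1.23. Atp23, of complex V, fell by 1.27 from 20.1 and 22.4 CPM to 8.97 and 8.62 CPM. Of 13 enzymes of the tricarboxylic acid cycle none rose and 9 fell with DSF (1 and 7 with LPS present), among them Idh3a at -0.59, Ogdh at -0.59 and Fh1, fumarase, at -0.57. Of 77 tested mitochondrial ribosomal proteins 9 rose and 42 fell (8 and 37), with medians of -0.25 and -0.21. The background is the 31% up and 27.1% down, and 33.7% and 31.6% with LPS present, given above.

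**Figure D5:**
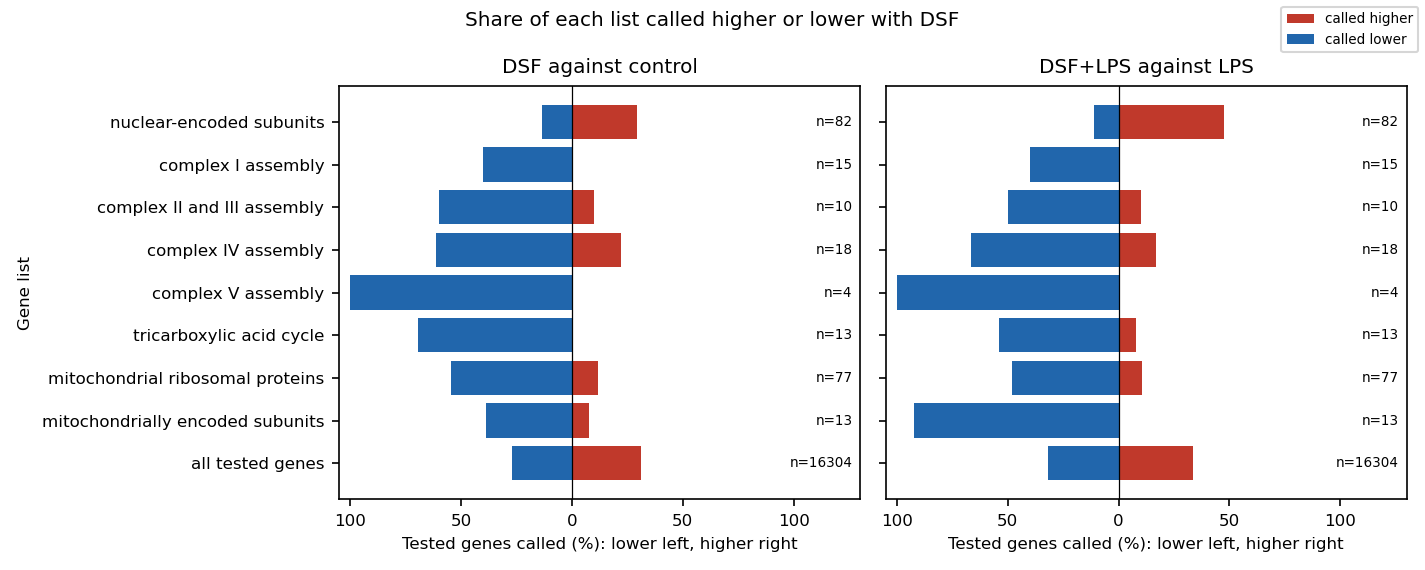
Share of the tested genes of each list (%, horizontal axis) called higher (red, right) or lower (blue, left) with DSF, without LPS and with it; n is the number tested. The nuclear-encoded subunits have more red than blue, and the assembly, cycle, ribosomal and mitochondrially encoded lists more blue than red.

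Among a list of regulators of mitochondrial gene expression, including factors that transcribe mitochondrial DNA, falls also outnumbered rises. Of 11 tested, 2 rose and 6 fell with DSF, and 2 and 8 with LPS present. Ppargc1b, a coactivator of mitochondrial genes, had 20.7 and 20.3 CPM in control, 8.45 and 5.59 with LPS, 7.38 and 6.15 with DSF, and 4.69 and 3.77 with DSF+LPS, and fell by 1.60 with DSF and by 1.55 with LPS alone. Polrmt, the mitochondrial RNA polymerase, fell by 1.07 with DSF, and Nrf1 by 0.49 (54.4 and 55.9 CPM in control and 40.3 and 38.0 CPM with DSF). Tfb2m, a mitochondrial transcription factor, rose by 0.63, and Gabpb1, a partner of GABPA, by 0.61. These were the only 2 of the list that rose with DSF. Gabpa itself and Yy1, whose words were also searched, are in the list and did not rise. Nrf1 and Gabpb1 are named for the promoter words above, after their values were seen. A link between these genes and the words was not tested.

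In DSF+LPS the 13 subunits from mitochondrial DNA did not follow their nuclear partners. With DSF alone 1 rose and 5 fell, where 31% of all genes tested rose and 27.1% fell. With DSF+LPS against LPS none rose and 12 fell, beside 33.7% and 31.6% of all genes. The median log2 fold change there was -0.46, where the nuclear members had 0.21. DSF+LPS against DSF also lowered 12 of the 13, beside 6.53% of all genes. The interaction was below 0 for 9, beside 12.2% of all genes. mt-Nd1 had 1344 and 1307 CPM in control, 1280 and 1429 with LPS, 1168 and 1110 with DSF, and 743 and 668 with DSF+LPS, and fell by 0.94 with DSF+LPS against LPS (SE 0.069, edgeR adjusted p = 2.33e-08). mt-Nd6, the member on the light strand, had 119.5 and 127 CPM in control, 104 and 128 with LPS, 155 and 112 with DSF, and 47.0 and 47.2 with DSF+LPS, and fell by 1.31. The largest in counts, mt-Co1, rose with DSF alone (0.19) and fell by 0.13 with LPS present. Within a library, the counts of all nuclear members divided by those of the mitochondrial genes were 0.553 and 0.545 in control, 0.593 and 0.528 with LPS, 0.522 and 0.558 with DSF, and 0.803 and 0.797 with DSF+LPS. The first 3 groups overlapped in this ratio and DSF+LPS stood above them all. The overlap of DSF with control depends on mt-Co1. Without mt-Co1 the other 12 mitochondrial genes summed to 9659 and 9583 CPM in control and 9124 and 9943 with LPS. They summed to 8970 and 8816 CPM with DSF, below control, and to 6536 and 6679 with DSF+LPS. Cycs, the soluble cytochrome c that the symbol pattern does not take, had 38.9 and 35.7 CPM in control, 46.5 and 44.1 with LPS, 36.4 and 37.1 with DSF, and 31.8 and 24.2 with DSF+LPS, and fell by 0.69 with DSF+LPS against LPS.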

How the data were processed

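Messenger RNA from 8 libraries of iBMDM cells was counted per gene. TRIzol extraction and a VAHTS library kit were used, per the labels' protocols. What the authors deposited is 1 matrix of raw counts, whole numbers for each gene identifier and library. The submitters' processing notes list GRCm39 and DESeq2 but no step for either. Which aligner, counter, annotation and strand setting they chose, and how multiply matching reads were treated, is not given in the sources used here. Symbols came from GENCODE M21 (GRCm38), which named 52081 of 55414 gene rows, together with exonic lengths and the 50-base words shared between transcripts. Counts for members with near-identical copies, overlapping genes or antisense genes are therefore uncertain.

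The counts were fitted with edgeR 4.0.16 in R 4.3.3. All 8 libraries entered 1 quasi-likelihood fit with a mean per group, TMM scaling and the filterByExpr filter (minimum count 10, minimum total 15), and p-values were adjusted by Benjamini-Hochberg over 16304 genes in each of 5 comparisons. SE was taken as the absolute log2 fold change over the root of F from the same test. Sums over cell type markers, and ratios for genes with few counts, use plain library totals. Alternatives were other scalings, no filter, DESeq2 1.42.0, the replicate number as a block, the 2 compared groups alone, and leaving out each library. The fit was tested on simulated data in which a small set of genes changed, about as many up as down. It thus does not bear on the scaling where many genes change, as in the comparisons with DSF. Replicates differed by more than counting noise in every group (chi-square per degree of freedom 3.88 to 13.4), so none was counted as a duplicate.

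The members, the other gene lists, the tests and the naming rule were chosen with earlier results of these data known. The rule named 27 genes of interest in every comparison where tested, then up to 3 called members with the largest rise and fall in each complex, the 3 largest interactions in each direction, and up to 3 called genes of each other list; the values of 1 tested member are not reported here; all 8 members with a called interaction are named because they were few and chosen after their values were seen.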

Additional observations from a re-analysis of the deposited data

Results flagged for a closer look

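Of 82 tested members, 8 had an LPS response with DSF that differed from that without it by the edgeR interaction test. Each differed in the upward direction, beside 7.58% of all genes tested called above 0 and 12.2% below. The share above 0 was near that of all genes tested. The differences on the log2 scale were 0.61 for Cox5b, 0.53 for Ndufv3, 0.5 for Ndufb10, 0.48 for Uqcr11, 0.44 for Ndufb8, 0.43 for Ndufs7, 0.36 for Sdhd and 0.33 for Atp5d, with adjusted p from 0.0101 to 0.0459. Over the alternatives the difference ran from 0.53 to 0.73 for Cox5b, from 0.48 to 0.62 for Ndufv3 and from 0.38 to 0.52 for Ndufb8. The Ndufb8 call was lost without LPS replicate 2 (adjusted p = 0.0736), and the other 7 without 2 to 6 libraries each. With 2 libraries in a group, a single sample far from its group cannot be flagged.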

How the results depend on the processing

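The counts of members that rose and fell depended on the scaling and on single libraries. With library size alone they were 0 and 16 for LPS against control, 13 and 17 for DSF against control, 7 and 2 for DSF+LPS against DSF, and 16 and 0 for the interaction, and the median log2 fold change of the members became -0.13 for LPS against control, -0.019 for DSF against control and 0.089 for DSF+LPS against DSF. With upper-quartile scaling 0 rose and 3 fell for LPS against control (median -0.044), 2 fell and the median was 0.36 for DSF+LPS against LPS, 19 rose for the interaction, and Atp5a1 turned to 0.0016 for DSF+LPS against LPS. DESeq2 size factors in edgeR and DESeq2 itself each gave 5 falls for DSF+LPS against LPS, as did a fit of the 2 groups compared, which also gave 3 falls for LPS against control and 5 rises for DSF+LPS against DSF. Without the filter on low counts 0 rose for LPS against control. The cause of these shifts was not tested.

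Leaving out 1 library gave 0 to 1 up and 0 to 3 down for LPS against control; 15 to 26 up and 7 to 13 down for DSF against control; 28 to 39 up and 5 to 10 down for DSF+LPS against LPS; 0 to 22 up and 0 to 0 down for DSF+LPS against DSF; 2 to 19 up and 0 to 0 down for the interaction. The medians ran from -0.000957 to 0.067 for LPS against control, 0.055 to 0.11 for DSF against control, 0.20 to 0.29 for DSF+LPS against LPS, 0.14 to 0.24 for DSF+LPS against DSF, 0.12 to 0.22 for the interaction. Of 75 calls of named members, recomputed under every alternative that could give them, 942 values kept their call and 174 lost it. In 1 more the call was lost and the sign changed: Atp5a1 for DSF+LPS against LPS with upper-quartile scaling, at 0.0016. No call turned into a call in the opposite direction. Samples with the same replicate number did not deviate together (correlations of their deviations from -0.12 to 0.053), so the numbers were not taken as pairs. With the replicate number as a block, 1 and 1 for LPS against control, 25 and 11 for DSF against control, 39 and 10 for DSF+LPS against LPS, 20 and 0 for DSF+LPS against DSF, 9 and 0 for the interaction rose and fell.

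Summed CPM by complex with library size alone were for complex I 2193 in control, 2235 with DSF+LPS; for complex II 900.2 in control, 665 with DSF+LPS. They were for complex III 1137 in control, 1192 with DSF+LPS, for complex IV 1581 in control, 2014 with DSF+LPS and for complex V 4378 in control, 4043 with DSF+LPS. Without the most abundant member of complexes II to V (Sdha, Uqcrc1, Cox4i1 and Atp5b) the sums were for complex II 473 in control, 441 with LPS, 391 with DSF, 431 with DSF+LPS, for complex III 727 in control, 767 with LPS, 819 with DSF, 962 with DSF+LPS. They were for complex IV 1023 in control, 1053 with LPS, 1210 with DSF, 1429 with DSF+LPS and for complex V 2535 in control, 2553 with LPS, 2333 with DSF, 2676 with DSF+LPS. With 1 library of a group left out they are the other library's values: complex I 2000 to 2046 in control, 1961 to 2048 with LPS, 2052 to 2192 with DSF, 2378 to 2390 with DSF+LPS; complex II 809.8 to 851 in control, 771 to 809 with LPS, 647 to 658 with DSF, 693 to 725 with DSF+LPS; complex III 1034 to 1064 in control, 1058 to 1112 with LPS, 1052 to 1112 with DSF, 1269 to 1274 with DSF+LPS; complex IV 1408 to 1509 in control, 1455 to 1589 with LPS, 1721 to 1813 with DSF, 2120 to 2176 with DSF+LPS; complex V 3973 to 4105 in control, 4054 to 4228 with LPS, 3706 to 3902 with DSF, 4290 to 4333 with DSF+LPS. At this depth 6 rare members and the second Atp5o identifier had too few counts to be tested.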
